A study of Mus musculus with 12 samples.

Results

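Cathepsins are the main peptidases of the lysosome, and the transcripts of 10 cathepsin genes were followed here in tumor-associated macrophages (TAMs) sorted from B16 melanomas. The 10 genes, Ctsa, Ctsb, Ctsc, Ctsd, Ctsf, Ctsh, Ctsk, Ctsl, Ctss and Ctsz, were taken by symbol from the 55401 genes of each count table, and each symbol stood on 1 gene identifier. The data were bulk RNA-seq of 12 samples in 4 groups of 3, given as raw counts in separate tables for genotype and for tumor stage. WT samples came from AMPKfl/fl mice and AMPK-KO samples from AMPKfl/flLyz2cre/cre mice, in which the myeloid-expressed Lyz2 promoter drives the recombinase, so that other myeloid cells can lose AMPK too. For AMPK-KO replicates 2 and 3 the labels have Lyz3 and Lyz4 where replicate 1 has Lyz2, and all were read as the same genotype. Both groups were collected, per the study's methods, at day 15 after B16-F10 melanoma cells were placed under the skin. The early-stage and late-stage samples came from wild-type mice at day 8 and day 15. No sample was treated, the mice were of C57BL/6 background, and the methods describe TAMs as sorted CD45+CD11b+ cells carrying F4/80 and lacking Ly6C and Ly6G, although legends in the supplement give Ly6C as positive. Nothing in the labels says whether replicates came from separate animals, so the p-values measure only the spread between these samples.

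Cathepsins are made as inactive proenzymes, carried to lysosomes largely by mannose 6-phosphate receptors, and cleaved to active enzymes in the acidic lumen. Most are cysteine peptidases, whereas cathepsin D is an aspartic and cathepsin A a serine peptidase. In macrophages they digest engulfed cells and matrix and prepare peptides for MHC class II molecules, and those that leak into the cytosol or are secreted act on other substrates, which is why they are followed in work on lysosome-dependent cell death and on tumor matrix.

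The samples held 71019494 to 84470374 counts each. All 10 macrophage marker genes were detected in all 12 samples, with summed levels of 10691 to 15156 CPM (counts scaled by library size and TMM factors). Other cell types' markers were present at lower sums, among them melanoma genes at 861 to 2377 CPM and fibroblast genes at 397 to 884 CPM. Prkaa1, which encodes the AMPK catalytic subunit alpha 1, was 65.0 ± 3.34 CPM in WT and 42.9 ± 3.53 CPM in AMPK-KO samples (SD, n = 3) and fell by 0.60 on the log2 scale (SE 0.07, edgeR quasi-likelihood test, adjusted p = 2.3e-04). Lyz2, the locus that carries the recombinase, stood at 10.7 ± 2.46 CPM in WT and 11.2 ± 2.16 CPM in AMPK-KO samples, against 2790 ± 279 CPM in early-stage and 1107 ± 19.1 CPM in late-stage samples. The WT and AMPK-KO samples overlapped in this transcript (adjusted p = 0.830), and both stood far under the stage samples, which come from a table of their own. The labels give no recombinase for the WT mice, and whether they too carried the Lyz2cre allele was not tested, so that what the WT group stands for rests on its label and on Prkaa1. The 4 Y-linked genes summed to 3435 to 4035 counts in the early-stage and to 0 to 4 counts in the late-stage samples, so that stage and the sex of the mice cannot be told apart. In the genotype samples they summed to 9229 to 11360 counts (WT) and 11299 to 12183 counts (AMPK-KO). The methods name female mice for the tumor models, which the late-stage samples alone match in these counts.

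Before the values, the promoter sequence of Ctss is shown because Ctss had the largest rise of the family in AMPK-KO samples and MHC class II genes rose there too. RefSeq (GRCm38.p6) gave promoter windows for 8 of the 10 genes, those other than Ctsb and Ctsh. The 250 bases before the Ctss start, chr3:95526536-95526785 on the + strand, held 1 match to the core of the interferon-stimulated response element (GAAA, any 2 bases, GAAA), 21 bases before the start (in capitals).
Ctss: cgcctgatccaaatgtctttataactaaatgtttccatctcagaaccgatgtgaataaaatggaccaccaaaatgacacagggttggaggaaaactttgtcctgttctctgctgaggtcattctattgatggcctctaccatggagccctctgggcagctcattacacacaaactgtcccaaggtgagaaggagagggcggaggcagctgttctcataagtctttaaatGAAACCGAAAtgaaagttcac
Among 32851 promoter windows searched on both strands, 2.98% held this core, and no other cathepsin window did. The CACGTG motif is an E-box that the MiT/TFE factors, which drive lysosomal genes, can bind. It was found in 4 of the 8 genes, Ctsa, Ctsd, Ctsf and Ctsl, and in 6.02% of all windows. Its sites follow with the motif in capitals, since Ctsd and Ctsl had the largest falls in AMPK-KO samples.
Ctsd, chr7:142388055-142388077, - strand: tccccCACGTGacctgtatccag
Ctsd, chr7:142387908-142387937, - strand: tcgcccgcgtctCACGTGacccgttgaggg
Ctsl, chr13:64370739-64370768, - strand: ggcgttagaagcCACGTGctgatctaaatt
Ctsa, chr2:164833749-164833778, + strand: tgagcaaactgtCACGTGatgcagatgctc
Ctsf, chr19:4855074-4855103, + strand: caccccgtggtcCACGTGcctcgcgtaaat
Counted from the RefSeq start, the Ctsd sites lay 245 and 98 bases upstream, the Ctsl site 236, the Ctsf site 79, and the Ctsa site 12 bases upstream of the second of its starts. GENCODE places some transcripts' starts further upstream: 211 of the 250 window bases of Ctsd, 164 of Ctsa, 48 of Ctsl and 35 of Ctsf are annotated as exon of the same gene, and the nearer Ctsd site and the Ctsl and Ctsa sites fall within the annotated gene. The longer TCACGTGA, which contains CACGTG, was held by the nearer Ctsd site and by the Ctsa site, and by 0.785% of all windows. TGACNNNGC, the antioxidant response element, was held by the Ctsd window (62 and 47 bases before the start), by the Ctsz window (132 bases) and by 10.2% of all windows. The Ctsc and Ctsk windows held none of the 4 motifs. A match describes these letters only.

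The family took 1.84% to 2.28% of all counts in the 12 samples. Of the family's counts, Ctsb and Ctsd held 40.3% and 22.0% on average in WT and 37.0% and 15.0% in AMPK-KO samples. The 10 genes took 2.20%, 2.28% and 2.23% of all counts in the WT samples and 1.84%, 1.86% and 1.91% in the AMPK-KO samples, so that the groups did not overlap. In the early-stage samples the share was 2.19%, 2.14% and 1.97%, and in the late-stage samples 1.95%, 2.02% and 2.03%, with overlap between the groups. Ctsb alone ranked between 2 and 5 among all genes by counts in every sample. Ctsd ranked 8 in every WT sample and 23 in every AMPK-KO sample. At the other end, Ctsf ranked between 10070 and 11811.

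Levels of different genes can be compared only per length, and CPM per kilobase of annotated exon was used for this. In WT samples Ctsd was highest at 2100 ± 75.8 CPM per kilobase (SD, n = 3), ahead of Ctss (1587 ± 120) and Ctsb (1493 ± 32.6), the latter pair overlapping. Ctsz, Ctsc, Ctsa, Ctsl and Ctsh followed at 881, 323, 273, 203 and 114, with Ctsk (9.95) and Ctsf (0.950) last. In AMPK-KO samples Ctss was highest at 2153 ± 111, above Ctsd at 1190 ± 35.5 and Ctsb at 1142 ± 12.6, and the replicates of these did not overlap. Ctsh (148) and Ctsl (140) overlapped there. In early-stage samples Ctss (1931 ± 83.6) and Ctsd (1800 ± 169) overlapped at the top, as did Ctsa (225) with Ctsl (179) lower down, and Ctsk stood at 24.1. In late-stage samples Ctsd (1880 ± 121) came before Ctss (1612 ± 33.7) and Ctsb (1294 ± 45.5). The order depends on the length taken: with the length of the principal transcript, an alternative chosen after seeing the data, 4 members changed place in WT, 6 in AMPK-KO, 5 in early-stage and 2 in late-stage samples. Ctsd stayed highest in WT and late-stage samples and Ctss in AMPK-KO samples under both lengths.

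**Figure D1:**
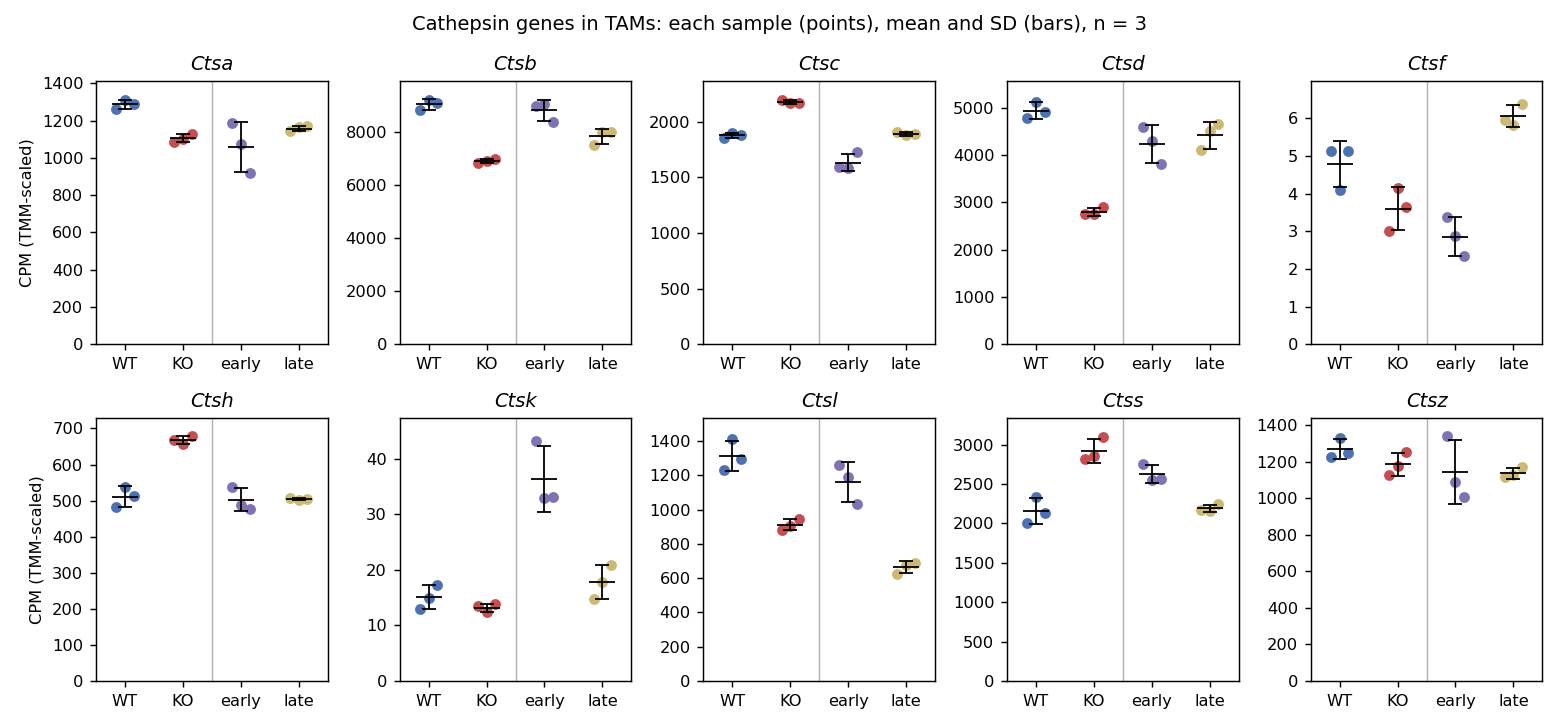
Level of each of the 10 cathepsin genes in every sample, in TMM-scaled CPM on linear axes from 0, with points for samples and black bars for the mean and SD (n = 3). The AMPK-KO (KO) points of Ctsd lie between 2743 and 2893 CPM, under all WT points, and the late-stage points of Ctsl between 627 and 691 CPM, under all early-stage points.

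In AMPK-KO against WT samples, 7 of the 10 cathepsin genes were called changed (adjusted p under 0.05): Ctsa, Ctsb, Ctsd and Ctsl fell and Ctsc, Ctsh and Ctss rose, while Ctsf, Ctsk and Ctsz were not called. The background is high, with 21.1% of the 17532 genes tested called in this comparison, 11.3% higher and 9.78% lower. The 7 called members also had groups that did not overlap, as had 37.2% of all genes. The median log2 fold change of the family was -0.20, against -0.004 over all genes. No member passed an absolute log2 fold change of 1. Of these genes the study itself draws Ctsc, Ctsh and Ctss among its cell death inducers from these same samples, so their direction is not independent evidence.

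Ctsd, an aspartic endopeptidase that starts much of the protein breakdown in lysosomes, had the largest change. It was 4772, 5126 and 4914 CPM in the WT samples and 2743, 2755 and 2893 CPM in the AMPK-KO samples. Every AMPK-KO sample lay far under every WT sample. This was -0.82 ± 0.04 (SE) on the log2 scale, or -43.3% (adjusted p = 4.9e-07). Ctsd lies at chr7:142375911-142388038 on the - strand and shares 808 exonic bases with Gm49369 on the same strand, which had 0 to 343 counts, so reads there may not be assigned to Ctsd. Ctsa, a serine carboxypeptidase that also holds neuraminidase 1 and beta-galactosidase in a stable complex, was 1262, 1311 and 1290 CPM in WT and 1085, 1104 and 1128 CPM in AMPK-KO samples. The groups did not overlap, and the log2 fold change was -0.22 ± 0.04 (adjusted p = 2.2e-03). Ctsa shares 495 exonic bases with antisense Pltp, which rose by 0.26 ± 0.04 on the log2 scale (adjusted p = 9.1e-04), and without a stated strand setting reads of the pair cannot be told apart.

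The cysteine endopeptidases divided. Ctsb, the most counted member and an enzyme that both cuts within chains and trims their ends, was 8820, 9208 and 9073 CPM in WT and 6831, 6914 and 6983 CPM in AMPK-KO samples. All AMPK-KO samples were lower, with a log2 fold change of -0.39 ± 0.03 (adjusted p = 1.2e-05). It shares 774 exonic bases with antisense Fdft1, which had 1158 to 1989 counts. Ctsl, a broad endopeptidase, was 1234, 1411 and 1298 CPM in WT and 884, 903 and 948 CPM in AMPK-KO samples. These groups too were apart, with a log2 fold change of -0.53 ± 0.05 (adjusted p = 6.7e-05). Ctsl shares 1742 exonic bases with antisense Gm47123 (0 counts) and 395 with Gm49230 on the same strand (0 to 1 counts). Reads there may not be assigned to Ctsl, which could also lower its level per length. Ctss, the endopeptidase that makes the last cuts in the MHC class II invariant chain and stays active at neutral pH, went the other way. It was 2009, 2331 and 2126 CPM in WT and 2816, 2860 and 3097 CPM in AMPK-KO samples. The lowest AMPK-KO sample was above the highest WT sample, and the log2 fold change was 0.44 ± 0.06 (adjusted p = 3.6e-04). Ctsk, the collagen-cutting enzyme of osteoclasts and the neighbour of Ctss on chromosome 3, was low at 13.0, 15.0 and 17.2 CPM in WT and 13.5, 12.4 and 13.8 CPM in AMPK-KO samples. Its groups overlapped and its log2 fold change was -0.19 ± 0.12 (adjusted p = 0.303). Ctsf, whose long propeptide resembles a cystatin, was 5.14, 4.09 and 5.14 CPM in WT and 3.01, 4.14 and 3.64 CPM in AMPK-KO samples. It overlapped as well, at -0.41 ± 0.17 (adjusted p = 0.126).

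Among the exopeptidases, Ctsc, the dipeptidyl peptidase that activates granule serine proteases, was 1852, 1898 and 1882 CPM in WT and 2200, 2171 and 2168 CPM in AMPK-KO samples. The AMPK-KO samples were all higher, with a log2 fold change of 0.22 ± 0.03 (adjusted p = 1.2e-03). Ctsh, mainly an aminopeptidase, was 481, 539 and 514 CPM in WT and 667, 658 and 678 CPM in AMPK-KO samples. The groups were separate, and the log2 fold change was 0.39 ± 0.05 (adjusted p = 2.9e-04). Ctsz, a carboxypeptidase whose propeptide binds integrins, was 1228, 1331 and 1249 CPM in WT and 1128, 1176 and 1254 CPM in AMPK-KO samples. AMPK-KO replicate 3 reached into the WT range, and the log2 fold change was -0.10 ± 0.05 (adjusted p = 0.208).

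The opposite directions changed the makeup of the family. Ctsd went from 22.0% ± 0.0792 of the cathepsin counts in WT to 15.0% ± 0.127 in AMPK-KO samples (SD, n = 3), and Ctss from 9.61% ± 0.404 to 15.6% ± 0.455. For each count of Ctsd there were 0.421, 0.455 and 0.433 counts of Ctss in the WT samples and 1.03, 1.04 and 1.07 in the AMPK-KO samples. Ctsl per count of Ctss was 0.614, 0.605 and 0.611 in WT and 0.314, 0.316 and 0.306 in AMPK-KO samples. Neither ratio overlapped between the genotypes, which follows from the separate levels of Ctsd, Ctsl and Ctss given above.

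**Figure D2:**
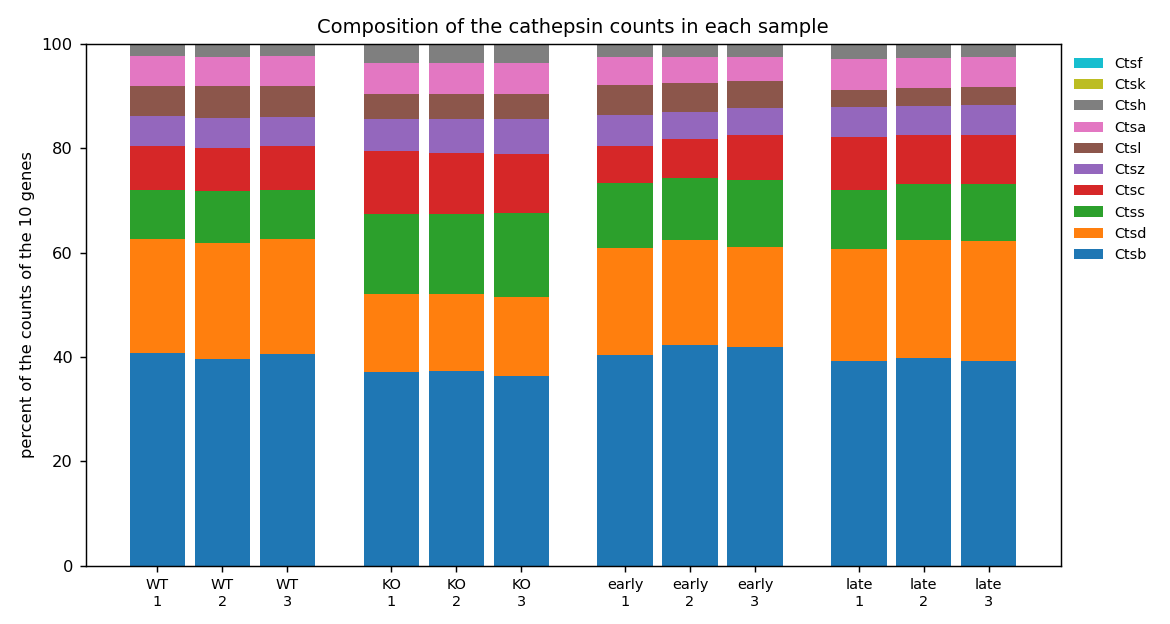
Percent of the counts of the 10 genes taken by each gene in every sample, as stacked bars for the 3 replicates of each group. Ctsd takes 22.0% on average in WT and 15.0% in AMPK-KO (KO) samples, and Ctss 9.61% and 15.6%; Ctsk and Ctsf are too small to be seen.

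In bulk samples fewer cells of a type and less RNA per cell cannot be told apart, and other cell types' markers moved with genotype. All 7 melanoma markers were lower in AMPK-KO samples, with a sum of 1342 to 1362 CPM in WT and 861 to 896 CPM in AMPK-KO. Without Gpnmb, which macrophages also make, the sums were 921 to 926 and 613 to 647 CPM. Monocyte markers summed to 446 to 488 CPM in WT and 774 to 803 CPM in AMPK-KO samples (3 of 5 higher), dendritic cell markers to 80.3 to 90.8 and 125 to 132 CPM (6 of 6 higher), NK cell markers to 49.8 to 59.5 and 135 to 141 CPM (7 of 7 higher) and fibroblast markers to 575 to 621 and 747 to 829 CPM (6 of 7 higher). T cell markers summed to 111 to 126 and 203 to 208 CPM (7 of 8 higher), neutrophil markers to 95.5 to 102 and 159 to 162 CPM (3 of 6 tested higher), endothelial markers to at most 58.0 CPM in WT and to 116 to 120 CPM in AMPK-KO samples (2 higher and 1 lower of 4 tested) and B cell markers to 30.9 to 32.5 and 19.9 to 22.1 CPM (1 higher and 4 lower of 5). Outside the neutrophil list, in which Ly6g was at 0 in both genotypes, none of these markers was at 0 throughout a group. The macrophage sum was 13940 to 15156 CPM in WT and 13578 to 13793 CPM in AMPK-KO samples. Of its 10 markers, 2 were called higher (Csf1r and Itgam) and 2 lower (Cd68 and Mrc1). The part of these cells in the cathepsin differences was not tested.

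In late-stage against early-stage samples, 4 of the 10 genes were called: Ctsk, Ctsl and Ctss fell and Ctsf rose. Of the 17630 genes tested, 9.18% were called, 4.31% higher and 4.88% lower. The groups did not overlap for 6 members, the called genes plus Ctsb and Ctsc, against 31.2% of all genes. The median log2 fold change of the family was 0.00, against 0.003 over all genes. Ctsf and Ctsk passed an absolute log2 fold change of 1, as did 1.87% of all genes tested. Ctsb, Ctsl and Ctss are among the genes the study draws as cell death inducers from these samples, so here too their direction is not independent evidence.

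Ctsl was 1264, 1191 and 1035 CPM in the early-stage and 627, 677 and 691 CPM in the late-stage samples. All late-stage samples lay well under the early-stage ones, with a log2 fold change of -0.81 ± 0.09 (adjusted p = 4.7e-04). Ctsk was 43.2, 32.9 and 33.1 CPM in the early-stage and 14.8, 17.9 and 20.9 CPM in the late-stage samples. Early-stage replicate 1 was the highest and the groups were apart, with a log2 fold change of -1.03 ± 0.15 (adjusted p = 2.9e-03). Ctss was 2754, 2553 and 2562 CPM in the early-stage and 2164, 2162 and 2242 CPM in the late-stage samples. It did not overlap and was called narrowly, at -0.26 ± 0.06 (adjusted p = 0.0310), and this call was lost under 6 of 12 alternative settings, among them leaving out early-stage replicate 2 (adjusted p = 0.0722) or late-stage replicate 1 (0.107), 2 (0.159) or 3 (0.109). Ctsf was 3.37, 2.88 and 2.33 CPM in the early-stage and 5.96, 5.83 and 6.39 CPM in the late-stage samples. The lowest late-stage sample was above the highest early-stage one, and the log2 fold change was 1.08 ± 0.18 (adjusted p = 5.6e-03), from a low level.

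The abundant Ctsb and Ctsc were not called, although their groups did not overlap. Ctsb was 8983, 9064 and 8361 CPM in the early-stage and 7515, 8005 and 7976 CPM in the late-stage samples, a log2 fold change of -0.17 ± 0.06 (adjusted p = 0.128). Ctsc was 1591, 1584 and 1724 CPM and then 1910, 1878 and 1888 CPM, a log2 fold change of 0.21 ± 0.06 (adjusted p = 0.0694). Both passed the threshold when early-stage replicate 3 was left out, at adjusted p = 0.0293 and 0.0140. The remaining members showed wide early-stage spread and small differences. Ctsd was 4593, 4299 and 3806 CPM in the early-stage and 4099, 4516 and 4643 CPM in the late-stage samples, at 0.06 ± 0.08 on the log2 scale (adjusted p = 0.703). Ctsa was 1185, 1073 and 917 CPM and then 1142, 1164 and 1169 CPM, at 0.13 ± 0.09 (adjusted p = 0.426). Ctsh stood between 478 and 538 CPM in the early-stage and between 501 and 506 CPM in the late-stage samples, at 0.01 ± 0.07 (adjusted p = 0.971). Ctsz ranged from 1006 to 1341 CPM and from 1117 to 1172 CPM, at -0.01 ± 0.10 (adjusted p = 0.970). In all 4 of these genes early-stage replicate 3 was the lowest of the 6 samples.

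**Figure D3:**
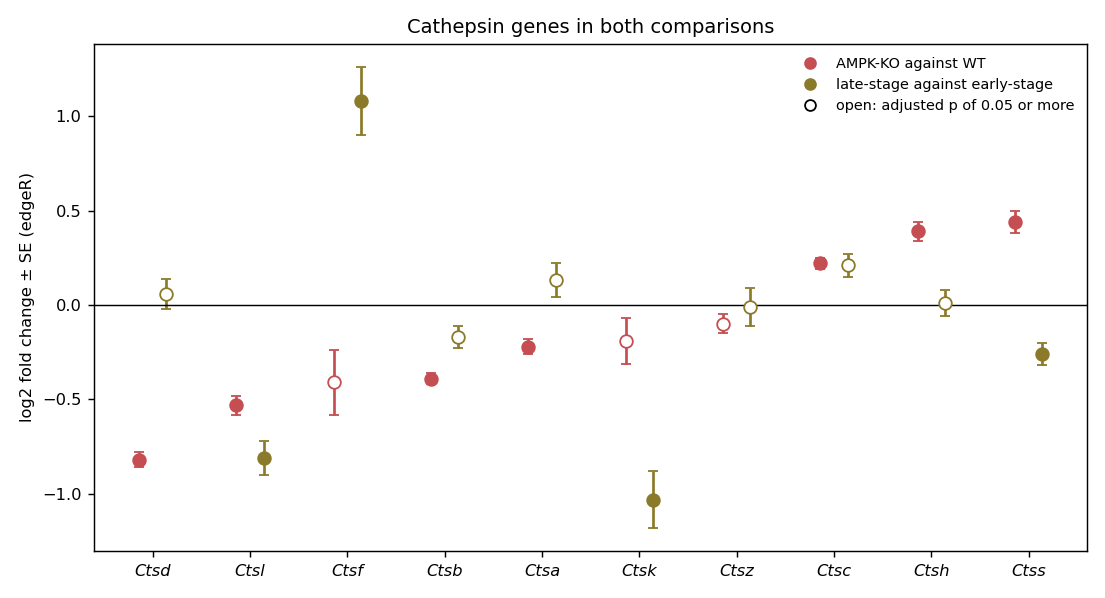
Log2 fold change with its SE (edgeR) of the 10 genes in AMPK-KO against WT and in late-stage against early-stage samples, 3 samples a group, filled where the adjusted p is under 0.05. Ctsl lies under 0 in both comparisons (-0.53 and -0.81), while Ctss lies at 0.44 for genotype and at -0.26 for stage.

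Set side by side, Ctsl was called lower in both comparisons, and Ctss higher in AMPK-KO samples and lower with stage. The other calls were in 1 comparison only. Ctsa, Ctsb and Ctsd were lower and Ctsc and Ctsh higher in AMPK-KO samples, while Ctsk was lower and Ctsf higher with stage. The comparisons share no samples, and the difference between the effects was not tested. Ctsl per count of Ctss was 0.459, 0.467 and 0.404 in early-stage and 0.290, 0.313 and 0.308 in late-stage samples. Ctss per count of Ctsd was 0.599, 0.594 and 0.673 in early-stage and 0.528, 0.479 and 0.483 in late-stage samples. Melanoma markers moved with stage as well (6 of 7 lower, 2324 to 2377 CPM early and 1138 to 1700 CPM late), as did fibroblast markers (3 of 7 lower, 811 to 884 and 397 to 561 CPM), monocyte markers (4 of 5 lower, 519 to 608 and 209 to 238 CPM) and NK cell markers (6 of 7 lower, 124 to 140 and 62.1 to 76.8 CPM). T cell markers went up (4 of 8 higher, 178 to 194 and 226 to 263 CPM), as did B cell markers (3 of 5 higher, 37.3 to 41.8 and 57.5 to 82.9 CPM). Neutrophil markers (2 of 5 tested lower) summed to 74.2 to 87.3 and 65.1 to 80.2 CPM, endothelial markers (1 of 5 lower) to 84.2 to 88.4 and 76.5 to 80.8 CPM, and dendritic cell markers (1 higher and 1 lower of 6) to 89.3 to 97.4 CPM early and at least 93.3 CPM late. Outside the neutrophil list none of these genes was at 0 throughout a group. The macrophage sum was 10691 to 12741 CPM early and 13176 to 13282 CPM late, with 1 marker of 10 called higher (C1qa) and 1 lower (Mrc1). The part of these cells in the fall of Ctsk, Ctsl and Ctss was not tested.

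The related genes were read from lists drawn up for this family. Of 13 other cathepsin genes, 10 had no counts in the genotype table and 9 in the stage table, and 3 were tested in each. Ctsw, a cathepsin of cytotoxic lymphocytes, was 8.76, 10.5 and 8.71 CPM in WT and 20.1, 21.6 and 23.0 CPM in AMPK-KO samples. It rose by 1.21 ± 0.11 on the log2 scale (adjusted p = 2.6e-05), beside the NK cell markers above, and was -0.19 ± 0.14 with stage (adjusted p = 0.447). Ctso, a broadly expressed lysosomal peptidase, was 47.4 ± 1.49 CPM in WT and 52.6 ± 2.35 CPM in AMPK-KO samples (adjusted p = 0.115) and was not called with stage (adjusted p = 0.250). Ctse, an endosomal aspartic peptidase, stood near 2 CPM and was not called in either (adjusted p = 0.549 and 0.794). Ctsg had no counts in the genotype table and 8 and 4 counts in 1 early-stage and 1 late-stage sample.

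Of 14 cathepsin inhibitors, 7 were tested in each comparison. Serpina3g, a serpin that inhibits cathepsins in the cytosol, rose from 72.5 ± 1.61 CPM in WT to 203 ± 1.33 CPM in the AMPK-KO group (1.49 ± 0.05 as log2 fold change, adjusted p = 4.2e-08). Cst7, the cystatin that inhibits cathepsin C and cathepsin L, rose from 4.34 ± 0.393 to 9.48 ± 1.02 CPM (1.13 ± 0.13, adjusted p = 1.8e-04), and Ctla2b, which resembles a cathepsin propeptide, fell from 45.7 ± 2.10 to 30.2 ± 2.72 CPM (-0.60 ± 0.08, adjusted p = 3.8e-04). The abundant secreted inhibitor Cst3 was 849 ± 87.8 and 917 ± 73.9 CPM (adjusted p = 0.365). The cytosolic Cstb was 266 ± 32.6 and 221 ± 19.7 CPM (adjusted p = 0.0596). It was not called with genotype, but was called lower in 5 of 13 alternatives, among them DESeq2 (adjusted p = 0.0119) and the replicate block (0.0174). With stage, Cstb was the only one called, from 258 ± 36.0 to 200 ± 8.34 CPM (-0.37 ± 0.10, adjusted p = 0.0493), and that call was lost in 8 of 13 alternatives, the fold threshold included: without early-stage replicate 1 or 2 the adjusted p was 0.0645 or 0.167, and without late-stage replicate 1, 2 or 3 it was 0.169, 0.125 or 0.180.

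The partners of cathepsin A fell with it in AMPK-KO samples. Glb1, lysosomal beta-galactosidase, went from 89.7 ± 0.577 to 60.1 ± 3.42 CPM (-0.58 ± 0.06, adjusted p = 5.9e-05) and Neu1, the lysosomal sialidase, from 136 ± 4.89 to 119 ± 3.58 CPM (-0.19 ± 0.05, adjusted p = 0.0232), the latter call being lost without AMPK-KO replicate 1 or 2 (adjusted p = 0.0961 and 0.0916) or WT replicate 3 (0.112). Neither was called with stage. Of 7 other lysosomal peptidases, 3 rose (Napsa, Prcp and Cpq) and 3 fell (Lgmn, Tpp1 and Dpp7) in AMPK-KO samples. Napsa, an aspartic peptidase related to cathepsin D, rose from 27.7 ± 1.47 to 53.8 ± 5.0 CPM (0.95 ± 0.08, adjusted p = 2.0e-05). Prcp, a carboxypeptidase, rose from 125 ± 5.80 to 159 ± 1.91 CPM (adjusted p = 7.8e-04). Tpp1, tripeptidyl peptidase, fell from 319 ± 17.9 to 247 ± 10.8 CPM (adjusted p = 9.4e-04). Lgmn, the asparaginyl endopeptidase that cleaves several cathepsins into their chains, fell from 3733 ± 105 to 3330 ± 74.8 CPM (-0.16 ± 0.04, adjusted p = 8.5e-03) and was 3412 ± 329 and 3513 ± 120 CPM with stage (adjusted p = 0.793). Napsa was the only one of the 7 called with stage, falling from 37.4 ± 4.74 to 22.7 ± 0.911 CPM (-0.72 ± 0.11, adjusted p = 3.2e-03).

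Genes of antigen presentation, the pathway Ctss serves, were all called higher in AMPK-KO samples (7 of 7, median log2 fold change 1.39). Of all genes tested, 11.3% were called higher there. Dendritic cell markers (6 of 6) and monocyte markers (3 of 5) were also called higher, and B cell markers mostly lower (4 of 5). The part of these cells in the rise of the class II genes was not tested. Cd74, the invariant chain itself, went from 3600 ± 136 to 8571 ± 233 CPM (1.25 ± 0.04, adjusted p = 4.1e-08), and H2-Aa and H2-Ab1, chains of the MHC class II molecule, rose by 1.39 ± 0.04 and 1.42 ± 0.06 on the log2 scale (adjusted p = 3.0e-08 and 2.4e-07). With stage 3 of 7 fell (median -0.42) by edgeR, where 4.88% of all genes fell, against 5 of 7 called by DESeq2. They included Cd74, which fell from 3705 ± 219 to 2717 ± 105 CPM (-0.45 ± 0.07, adjusted p = 3.4e-03), and H2-Aa. The third, H2-Eb1, another class II chain (-0.45 ± 0.10, adjusted p = 0.0187), lost its call with no filter (0.0582), without early-stage replicate 2 (0.0767) and without late-stage replicate 2 (0.102) or 3 (0.0959). Of the granule serine proteases that Ctsc activates, 4 of 5 were tested, and in AMPK-KO samples 3 rose and 1, the neutrophil protease Prtn3, fell. Gzmb, Gzma and Gzmk, lymphocyte granzymes, rose by 1.63 ± 0.08, 1.09 ± 0.11 and 2.66 ± 0.30 (adjusted p = 3.9e-07, 7.0e-05 and 1.4e-04). With stage Gzma and Gzmb were lower, at -1.79 ± 0.16 and -0.75 ± 0.10 on the log2 scale (adjusted p = 2.0e-04 and 1.3e-03). These are NK and T cell genes. The NK cell markers, a list that includes Gzma itself, were called higher with genotype (7 of 7) and lower with stage (6 of 7). T cell markers were called higher with genotype (7 of 8) and also with stage (4 of 8).

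The MiT/TFE factors can bind the CACGTG found in the Ctsa, Ctsd, Ctsf and Ctsl windows, of which only those of Ctsa and Ctsd hold TCACGTGA. Whether these sites and the levels of the factors are linked was not tested. Among the factors, Tfec fell in AMPK-KO samples, from 33.3 ± 3.33 to 22.2 ± 1.64 CPM (-0.58 ± 0.09, adjusted p = 1.3e-03). Tfeb, whose protein AMPK is known to phosphorylate, was 37.7 ± 2.23 and 40.4 ± 1.95 CPM (adjusted p = 0.368). With stage Mitf fell from 124 ± 16.4 to 68.8 ± 2.95 CPM (-0.86 ± 0.10, adjusted p = 7.4e-04) and Tfec from 24.8 ± 1.58 to 15.2 ± 0.676 CPM (-0.71 ± 0.10, adjusted p = 2.2e-03), while Tfeb was not called (adjusted p = 0.261). Mitf is also a gene of melanoma cells, whose markers moved with it. Transcript levels of these factors carry no measure of their activity.

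**Figure D4:**
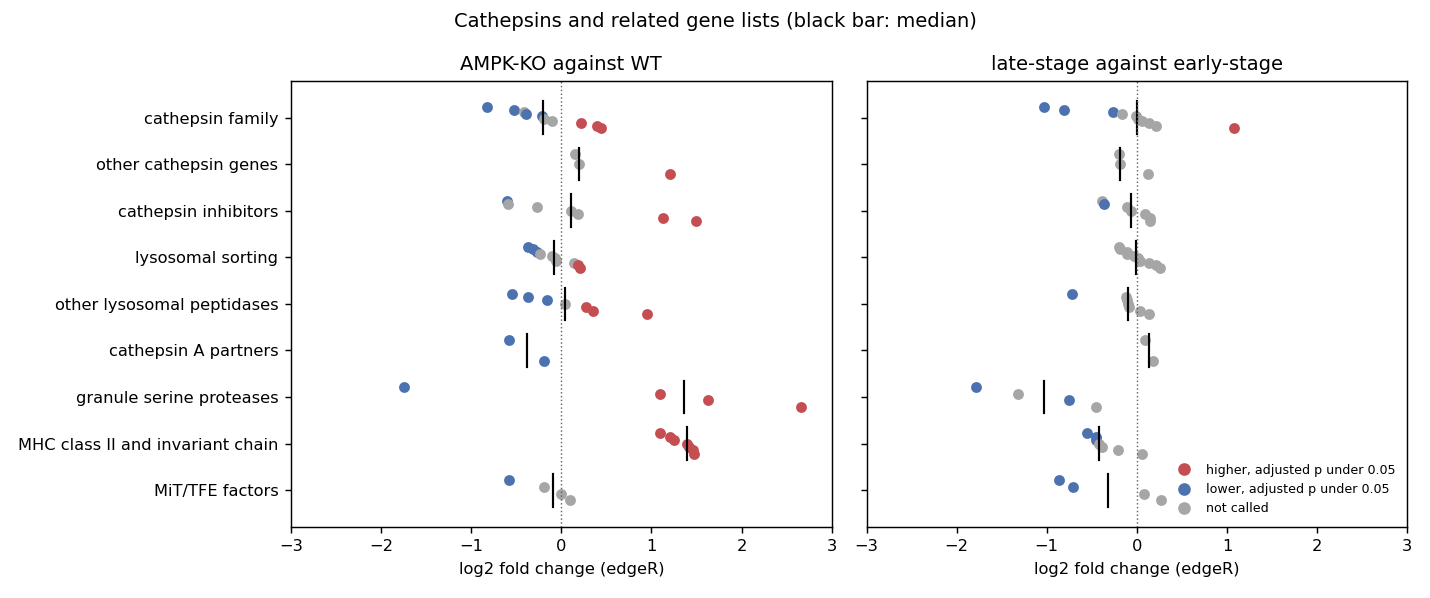
Log2 fold change (edgeR) of each tested gene of the cathepsin family and of 8 related lists in both comparisons, red for higher and blue for lower at an adjusted p under 0.05, gray otherwise, with the list's median as a black bar. The MHC class II list has its median at 1.39 for genotype and -0.42 for stage, and the cathepsin family at -0.20 and 0.00.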

How the data were processed

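The authors deposited 2 tables of raw read counts per gene, one for the WT and AMPK-KO samples and one for the stages. Per the labels and the methods, reads were aligned with HISAT2 and counted with featureCounts on GRCm38 (mm10). The submitters' notes also name FastQC and DESeq2. The methods write the build as GRCh38 in one place. The strand setting, the treatment of multiply mapped reads and tool versions are not given in the sources used here. Counting used 55401 gene identifiers, of which 54349 matched GENCODE M21, the source of the positions and lengths printed.

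Each table was fitted on its own with the edgeR (version 4.0.16, R 4.3.3) quasi-likelihood test after its default expression filter and TMM scaling, with Benjamini-Hochberg adjustment over all genes tested, and a call needed an adjusted p under 0.05. Depth was 71019494 to 84470374 counts per sample, so counting error is small for all members but Ctsf and Ctsk. The fit was tested on simulated data. Samples were grouped by their genotype and stage labels. Alternatives were other scaling factors, other filters, DESeq2 1.42.0, a replicate block, a fold threshold and leaving out each sample. The members and lists were chosen with earlier results of these data known. The genes named are the members, a fixed set of relatives, and from each other list up to 3 called genes with the smallest adjusted p.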

Additional observations from a re-analysis of the deposited data

How the results depend on the processing

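In AMPK-KO against WT, all 10 members kept their direction and their side of the threshold under 12 alternatives of scaling, filter, tool, replicate block and left-out samples, with Ctsd between -0.85 and -0.79 and Ctss between 0.39 and 0.50. In late-stage against early-stage, Ctsl (-0.89 to -0.74), Ctsk (-1.16 to -0.88) and Ctsf (0.95 to 1.22) kept their calls under the 12. With an absolute log2 fold change above 1 also required, 585 genes were called by genotype (360 higher, 225 lower) with 0 members higher and 0 lower. By stage this threshold left 329 genes (106 higher, 223 lower), with 1 member higher and 1 lower. DESeq2 called 1160 genes higher with stage and 2 members, Ctsc (adjusted p = 0.0457) being the added one. Without a filter on low counts 936 genes were called by stage (429 higher, 507 lower) and the Ctss adjusted p was 0.0711, which for this setting comes with more genes tested. Leaving out a sample gave 2414 to 4039 calls by genotype (1334 to 2102 higher, 1068 to 1937 lower), the lowest without WT replicate 3 and 2419 (1085 lower) without AMPK-KO replicate 2, and 653 to 2835 by stage (284 to 1514 higher, 369 to 1321 lower), the highest without early-stage replicate 1 and the lowest without late-stage replicate 2. The members called higher by stage were 1 to 2. Directions of small, uncalled values turned in a few settings with stage, where leaving out a sample moved Ctsz between -0.10 and 0.12 (0.00 without late-stage replicate 1), Ctsh between -0.03 and 0.06 (-0.01 without early-stage replicate 2), Ctsd between -0.01 and 0.13, Lgmn between -0.04 and 0.09 and Ctse between -0.01 and 0.30; upper-quartile factors put Ctsh at -0.01. Lyz2 by genotype moved between -0.08 and 0.28 (-0.02 and -0.03 without WT replicate 1 or 3). The cause of these shifts was not tested. Leaving out a sample puts 2 against 3 samples.

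Same-numbered samples' deviations correlated at 0.042, -0.004 and 0.001 by genotype and at 0.013, 0.018 and 0.026 by stage. Differently numbered samples correlated at -0.048 to 0.047 by genotype and at -0.061 to 0.041 by stage. The same-numbered samples thus did not stand out, but with 3 samples a group these values cannot show whether samples were paired. A fit with the replicate number as a block called 3862 genes by genotype (2029 higher, 1833 lower; 3 members higher, 4 lower) and 1417 by stage (674 higher, 743 lower; 1 member higher, 2 lower). Under the block the Ctss adjusted p by stage was 0.0676, that of Cstb 0.0504, and Ctsz by stage stood at 0.00.

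The depth limits Ctsf, at 2.33 to 6.39 CPM, more than the other members, and 3 samples a group limit what small changes can be called.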

Other observations

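Genes that carry cathepsins to the lysosome changed in both directions with genotype. Of the 10 sorting genes, all tested, 2 rose (M6pr and Psap) and 3 fell (Nagpa, Sort1 and Vps29) in AMPK-KO against WT samples (median log2 fold change -0.08, against -0.004 over all genes) and 0 were called with stage by edgeR or by DESeq2 (median -0.01), with 4 at an unadjusted p under 0.05 in edgeR. M6pr, the small mannose 6-phosphate receptor, was 429, 455 and 445 CPM in WT and 515, 510 and 512 CPM in AMPK-KO samples, and rose by 0.21 ± 0.04 on the log2 scale (adjusted p = 5.0e-03). Psap, prosaposin, which is itself among the most counted genes and takes part in the carriage of cathepsin D, was 8469, 8731 and 8341 CPM in WT and 9258, 9858 and 10040 CPM in AMPK-KO samples, and rose by 0.19 ± 0.04 (adjusted p = 4.5e-03). Neither gene's groups overlapped, while Ctsd fell in the same samples. Nagpa, the enzyme that uncovers the mannose 6-phosphate tag, fell from 103 ± 1.28 to 82.5 ± 1.07 CPM (-0.32 ± 0.05, adjusted p = 1.1e-03).

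Day 15 appears in both tables, as WT and as late-stage samples. These differ in mouse line, in Y-linked counts (9229 to 11360 against 0 to 4) and in Lyz2 (10.7 ± 2.46 against 1107 ± 19.1 CPM). They were normalized apart, so their values are given side by side with no test. Ctsl was 1314 ± 89.5 CPM in WT and 665 ± 33.5 CPM in late-stage samples, and Ctsb was 9034 ± 197 and 7832 ± 275 CPM. Ctss, at 2155 ± 163 and 2189 ± 45.8 CPM, and Ctsc, at 1877 ± 23.3 and 1892 ± 16.1 CPM, were close.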
